A study of Mus musculus with 4 samples.

Results

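The 10 genes described here encode apolipoproteins, the main protein components of the lipoproteins that the liver releases into plasma, and a protein of their assembly. The apolipoproteins are Apoa1, Apoa2, Apoa4, Apoa5, Apob, Apoc1, Apoc2, Apoc3 and Apoe. The assembly protein is Mttp, the microsomal triglyceride transfer protein. The 10 genes were chosen by symbol: every non-control probe that the scanner files name with one of the 10 symbols was taken. This gave 13 probes, with 2 probes each for Apoa2, Apob and Apoc3. They are 10 of 30439 genes or transcripts on the array, and all 10 are among the 16744 that were well above background on at least 2 of the 4 arrays. Liver RNA of male C57BL/6J mice on a high-fat diet (24 weeks in the labels) was read on 4 Agilent arrays with a single dye. Each genotype has 1 fasted and 1 refed array, so that no difference within a feeding state or a genotype has a replicate check. Drp1LiKO mice carry Drp1 flox/flox alleles and a Cre transgene under the albumin promoter, which is active in hepatocytes; the control (Cont) mice, called wild type in the labels, are Drp1 flox/flox littermates without Cre. The refed livers of both genotypes were taken after a fast of 17 h, or of 16 h in the study's methods, and 4 h of refeeding. The other 2 livers carry no feeding label. They are called fasted here because the study compares fasted with refed livers, but the series text mentions only mice that were refed, and per the labels the raw data of these 2 arrays had been submitted before. The comparisons ask how loss of the mitochondrial fission protein Drp1 and refeeding go with liver gene expression.

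Apolipoproteins form the protein shell of lipoproteins. In the hepatocyte, Apob is loaded with triglyceride by Mttp in the endoplasmic reticulum to form very low density lipoprotein (VLDL), whereas Apoa1 and Apoa2 are the main proteins of high density lipoprotein (HDL). The smaller exchangeable apolipoproteins tune what happens in plasma: Apoc2 activates lipoprotein lipase, Apoc1 and Apoc3 slow clearance, Apoa5 promotes lipolysis and Apoe is a ligand for lipoprotein receptors. Several of the genes lie side by side. In the GRCm38.p6 gene order, Apoa1, Apoc3, Apoa4 and Apoa5 follow each other on chromosome 9, and Apoc2, Apoc4, Apoc1 and Apoe on chromosome 7.

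The array reads each gene through probes of 60 bases. The sequences of 3 probes are shown because the differences described below turn on them, and their positions are those of the mm9 build given in the scanner files. The Apoa4 probe matches chr9:46049661-46050404, which is longer than the probe because its 60 bases are split over the genome. The main Apob probe (used for the gene because it is the brighter one) lies at chr12:8012697-8012756, and the second Apob probe at chr12:8023194-8023253, with 10437 bases of genome between them. Each sequence is written 5′ to 3′ as on the array.
Apoa4: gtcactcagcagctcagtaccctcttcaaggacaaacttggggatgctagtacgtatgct
Apob, main probe: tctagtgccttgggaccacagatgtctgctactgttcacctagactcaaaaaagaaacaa
Apob, second probe: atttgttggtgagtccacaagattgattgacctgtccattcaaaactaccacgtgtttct

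For Apoa4 and Apoa5, the 2 genes past 2-fold between genotypes, the 250 bases before the start site are shown from RefSeq (GRCm38.p6, plus strand), at chr9:46240594-46240843 and chr9:46268358-46268607. These positions belong to another build than the probe positions. Capitals mark a TATAAA motif, searched on both strands, which the Apoa5 window holds 31 bases before the start site and the Apoa4 window does not hold.
Apoa4: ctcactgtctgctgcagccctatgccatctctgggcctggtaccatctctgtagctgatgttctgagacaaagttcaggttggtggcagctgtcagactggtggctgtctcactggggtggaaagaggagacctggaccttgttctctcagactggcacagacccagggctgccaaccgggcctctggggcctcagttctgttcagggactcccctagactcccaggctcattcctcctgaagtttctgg
Apoa5: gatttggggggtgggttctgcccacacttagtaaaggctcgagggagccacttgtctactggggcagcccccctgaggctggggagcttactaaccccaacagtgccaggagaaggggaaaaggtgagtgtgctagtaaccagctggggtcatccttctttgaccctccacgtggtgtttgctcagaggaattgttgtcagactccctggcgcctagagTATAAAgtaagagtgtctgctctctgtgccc
RefSeq gave windows for 8 of the 10 genes. The windows searched were 300 bases long, that is the 250 bases before the start site and a stretch after it. Some genes have more than 1 start site, so the 8 genes have 12 windows. TATAAA was found in 5 of the 12 (of Apoa2, Apoa5, Apob and Apoe) and in 13.6% of all 32851 promoter windows. The 2 Apoa5 windows overlap and hold the same TATAAA, which is thus counted in both. The nuclear receptor motif TGACCT was found in 2 of the 12 (of Apoa2 and Apoc2; 16.3% of all windows), the forkhead motif TGTTTAC in 2 (of Apoa2 and Apoe; 3.65%) and the sequence CAAAGTCCA in 0 (0.475%). These are matches of letters only.

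The signals were not comparable between arrays as scanned. The 75th percentile of the array was 461 in fasted Cont, 722 in fasted Drp1LiKO, 357 in refed Cont and 526 in refed Drp1LiKO livers, a range of 2.02-fold, and between 48.7% and 58.2% of gene spots were well above background. No spot was saturated. Differences are therefore given on the log2 scale after each signal was divided by the 75th percentile of its array (scaled), and again from the authors' quantile-normalized matrix. The measurement SE comes from the scanner's error model, is 0.20 to 0.21 for a difference of 2 arrays in these probes and leaves out differences between animals. The 1 Dnm1l (Drp1) probe read 933 in fasted Cont, 1266 in fasted Drp1LiKO, 563 in refed Cont and 765 in refed Drp1LiKO livers, a scaled genotype difference of -0.21 and -0.12; whether this probe lies inside the deleted part was not given in the sources used here, so it does not check the labels. All 10 hepatocyte markers were well above background on every array. Their summed scaled signal was 2360 in fasted Cont, 1741 in fasted Drp1LiKO, 2756 in refed Cont and 1883 in refed Drp1LiKO livers. This sum is linear, so the brightest markers weigh most in it. The median scaled genotype difference of these markers was -0.14 in fasted and -0.44 in refed livers. In the authors' matrix it was 0.19 and -0.16, so its direction in fasted livers depends on the scaling. The part of these markers in the results below was not tested. The summed scaled signal of 10 macrophage markers was 73.5 in fasted Cont, 96.3 in fasted Drp1LiKO, 84.9 in refed Cont and 163 in refed Drp1LiKO livers; its part in the results below was not tested, and in whole liver fewer cells of a type and less RNA per cell cannot be told apart.

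The most abundant apolipoprotein transcripts gave nearly the same raw signal on all 4 arrays. Apoa2, the second most abundant protein of HDL, had the highest mean signal of the 16744 genes, followed by Apoe in rank 2, Apoc1 in rank 20 and Apoc3 in rank 30. The Apoa2 signal was 489856 in fasted Cont, 471568 in fasted Drp1LiKO, 485020 in refed Cont and 445602 in refed Drp1LiKO livers. Its second probe read 286971, 294014, 300059 and 279245 in the same order. The arrays therefore overlap almost completely for Apoa2, with the refed Drp1LiKO liver lowest on both probes.

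Apoe, the receptor ligand that macrophages also make, read 408320 in fasted Cont, 406506 in fasted Drp1LiKO, 402952 in refed Cont and 394954 in refed Drp1LiKO livers. Its 10 spots on 1 array had an SD of 0.14 to 0.16 on the log2 scale, which is wider than the whole range of the 4 means. Apoc1 read 267407, 265480, 268214 and 263273 in the same order of arrays. Apoc3, an inhibitor of lipolysis and clearance, read 219739, 222425, 229098 and 204847. For all 4 of these genes the highest array was less than 1.2-fold above the lowest. The second Apoc3 probe, designed to another transcript, was far dimmer, at 395, 484, 353 and 425.

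**Figure D1:**
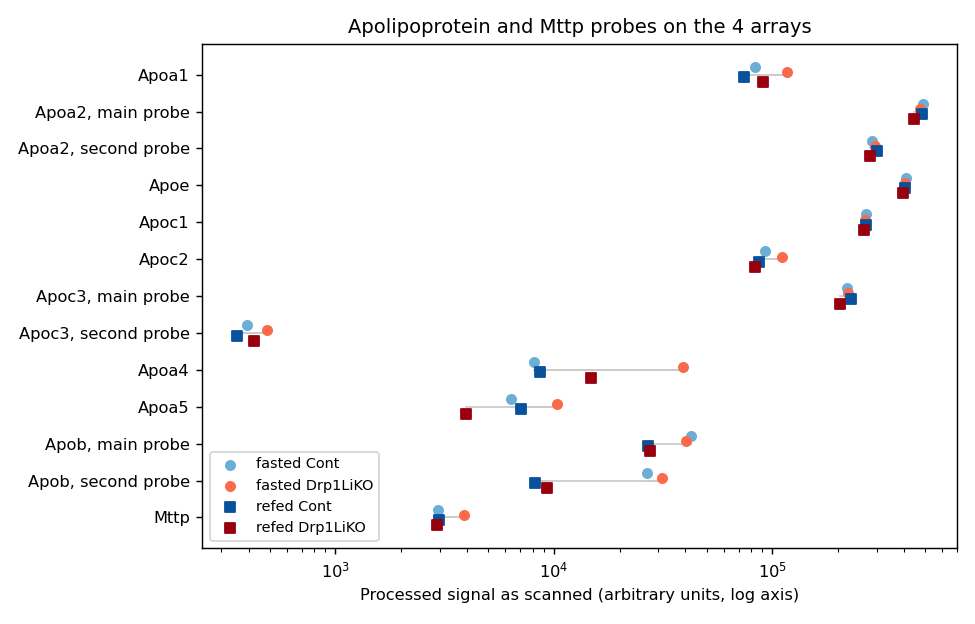
Processed signal as scanned (log axis, arbitrary units) of the 13 probes on the 4 arrays; each point is 1 array, and the points of a row are set apart vertically for sight only. Apoa2, Apoe, Apoc1 and the main Apoc3 probe stayed within 1.2-fold, whereas Apoa4 ran from 8134 to 38796 and the second Apob probe from 8218 to 31121.

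Division by the 75th percentile turned these flat signals into differences of one size. The log2 ratio of the 75th percentiles, Drp1LiKO over Cont, was 0.65 in fasted and 0.56 in refed livers, and refed over fasted it was -0.37 in Cont and -0.46 in Drp1LiKO livers. Scaled, Apoc1 was accordingly at -0.66 and -0.59 for genotype and at 0.37 and 0.45 for refeeding, against -0.01, -0.03, 0.00 and -0.01 as scanned. In the authors' matrix Apoc1 was at -0.01 and -0.10 for genotype and at 0.09 and 0.00 for refeeding. Apoa2 was at exactly 0.00 in all 4 comparisons of the authors' matrix, since it is the brightest probe on every array and quantile normalization gives one rank one value. So the size of the scaled differences of Apoa2, Apoc1, Apoc3 and Apoe rests on the scaling. No direction is given for them in any comparison. In fasted livers the sign of the genotype difference turned only for Apoc3, at 0.02 as scanned. It ran from -0.72 to -0.01 for Apoc1, from -0.71 to 0.00 for Apoe and from -0.76 to 0.00 for Apoa2. In refed livers no processing tried turned the sign of the genotype difference of these genes. It ran from -0.72 to -0.16 for Apoc3 and from -0.59 to -0.03 for Apoc1 and Apoe. For Apoa2 it ran from -0.68 to 0.00. In both feeding states the value smallest in size was within the measurement SE of 0.20 for each of these genes. The pattern is not particular to apolipoproteins: the 147 genes with a mean signal of at least 100000 had a median as-scanned genotype difference of 0.11 in fasted and 0.16 in refed livers, and of -0.53 and -0.40 once scaled. Their SD as scanned was 0.21 in fasted and 0.24 in refed livers, against 0.70 and 0.76 over all genes. Why bright probes differ less was not tested.

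**Figure D2:**
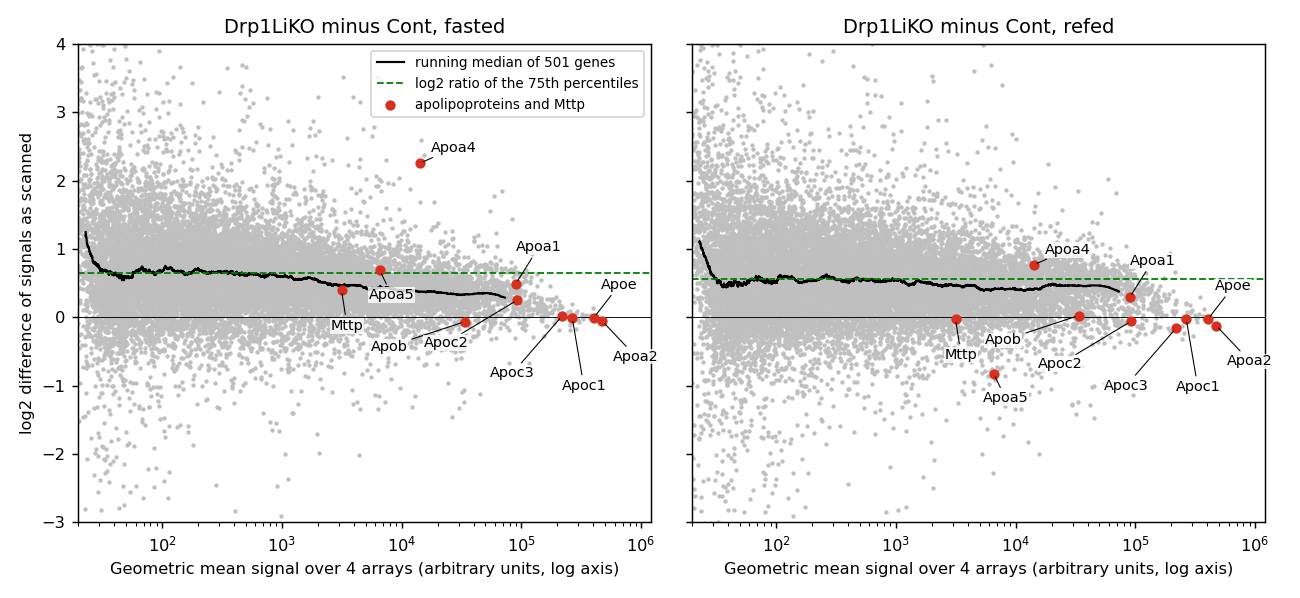
Difference of as-scanned log2 signals, Drp1LiKO minus Cont (y axis), against the geometric mean signal over the 4 arrays (x axis, log scale) for the 16744 genes (grey; values beyond the axis are not drawn), with the apolipoproteins and Mttp in red, a running median in black and the log2 ratio of the 75th percentiles as a dashed line. Toward the brightest genes the points close in on 0, where Apoa2, Apoe, Apoc1 and Apoc3 lie, while Apoa4 stands far above the running median in fasted livers and Apoa5 below it in refed livers.

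Apoa1, the main protein of HDL, and Apoc2, the activator of lipoprotein lipase, were next in brightness. Apoa1 read 82866 in fasted Cont, 116209 in fasted Drp1LiKO, 74132 in refed Cont and 90590 in refed Drp1LiKO livers, each the mean of 10 spots except fasted Cont with 9. Both Drp1LiKO arrays were thus above both Cont arrays as scanned, and the SD between the spots of 1 array was at most 0.064 on the log2 scale. After scaling Apoa1 differed by -0.16 and -0.27 between genotypes, whereas the authors' matrix gave 0.20 and -0.13, so that it has no settled direction. Apoc2 read 92621, 110198, 86467 and 83037 in the same order; its scaled genotype difference was -0.40 in fasted and -0.62 in refed livers, against 0.00 and -0.46 in the authors' matrix. Neither gene reached 2-fold in any comparison. Apoc4, the neighbour of Apoc2 and Apoc1 that was not among the 10, read 84976, 94421, 81347 and 90272.

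Apoa4 had the widest range of the 10 genes by the probe used for each, 1.61 on the scaled log2 scale, against 1.71 for the second Apob probe. It encodes an apolipoprotein of chylomicrons and HDL that is made mainly in the intestine and, in mice, also in the liver. Its signal was 8134 in fasted Cont, 38796 in fasted Drp1LiKO, 8673 in refed Cont and 14764 in refed Drp1LiKO livers. The 2 Cont arrays were nearly equal and both Drp1LiKO arrays lay above them, the fasted one by far. Scaled, Apoa4 was 3.04-fold higher in Drp1LiKO than in Cont livers after fasting (log2 difference 1.61, measurement SE 0.20; 1.96 in the authors' matrix). After refeeding the scaled difference was 0.21, close to the measurement SE of 0.20, or 0.37 in the authors' matrix. Refeeding went with a scaled difference of 0.46 in Cont and of -0.94 in Drp1LiKO livers (0.25 and -1.34 in the authors' matrix). Apoa4 was the 1 gene of the 10 at least 2-fold higher in fasted Drp1LiKO livers, where 5.54% of all genes tested were, and none of the 10 was 2-fold lower (3.86% of all genes).

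The nearest other probe on chromosome 9, just downstream of the Apoa4 probe and named only by its transcript, read 125 in fasted Cont, 336 in fasted Drp1LiKO, 131 in refed Cont and 175 in refed Drp1LiKO livers. It was chosen after its values were seen. As scanned, its order of arrays was that of Apoa4. Scaled, its genotype difference was 0.77 in fasted and -0.14 in refed livers, where Apoa4 was at 1.61 and 0.21, so the refed signs differ. Of 9 markers of intestinal epithelium, 7 (Vil1, Lct, Sis, Cdx2, Cdx1, Alpi and Muc2) were not well above background on any array. The other 2 were above it on every array: Fabp2 read 44450, 48295, 34467 and 34439 in the order of arrays above, and Tff3 read 474, 919, 206 and 2294. Scaled, Tff3 was at 0.31 in fasted and 2.92 in refed livers for genotype, so its highest array was the refed Drp1LiKO liver and not the fasted one. The part of these markers in the Apoa4 values was not tested. Over the 4 arrays the genes with a profile nearest to that of Apoa4, among 14447 genes well above background on every array, were Pdgfra, Sgk1 and Col1a1, at Euclidean distances of 0.17, 0.18 and 0.19 on the centred log2 scale. The summed scaled signal of the 8 stellate cell and fibroblast markers, to which Col1a1 belongs, was 46.5 in fasted Cont, 66.5 in fasted Drp1LiKO, 52.4 in refed Cont and 59.5 in refed Drp1LiKO livers. Its part was not tested either.

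Apoa5, the gene next to Apoa4 and a promoter of triglyceride lipolysis in plasma, differed in the refed livers instead. Its signal was 6391 in fasted Cont, 10310 in fasted Drp1LiKO, 7038 in refed Cont and 3972 in refed Drp1LiKO livers. The refed Drp1LiKO liver was the lowest of the 4 even as scanned, although its array was brighter than both Cont arrays. Scaled, Apoa5 was 2.61-fold lower in refed Drp1LiKO than in refed Cont livers (log2 difference -1.38; -1.22 in the authors' matrix), and as scanned the difference was -0.83. In fasted livers the scaled difference was 0.04. Refeeding went with a scaled difference of 0.51 in Cont and of -0.92 in Drp1LiKO livers (0.31 and -1.17 in the authors' matrix). Apoa5 was the 1 gene of the 10 at least 2-fold lower in refed Drp1LiKO livers (4.74% of all genes), and none of the 10 was 2-fold higher (5.98%). The nearest named profile was that of the cyclin Ccnf, at a distance of 0.096, followed by 2 transcripts without a gene symbol.

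The difference between genotypes in refed minus that in fasted livers was -1.40 for Apoa4 and -1.43 for Apoa5 on the scaled log2 scale. In the authors' matrix these were -1.59 and -1.48. For the other 8 genes it lay between -0.34 (Mttp) and 0.18 (Apob). No test of this interaction is possible with 1 array per condition. Both genes, neighbours on the chromosome, were thus lower in the refed than in the fasted Drp1LiKO liver, while their genotype differences stood in different feeding states.

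**Figure D3:**
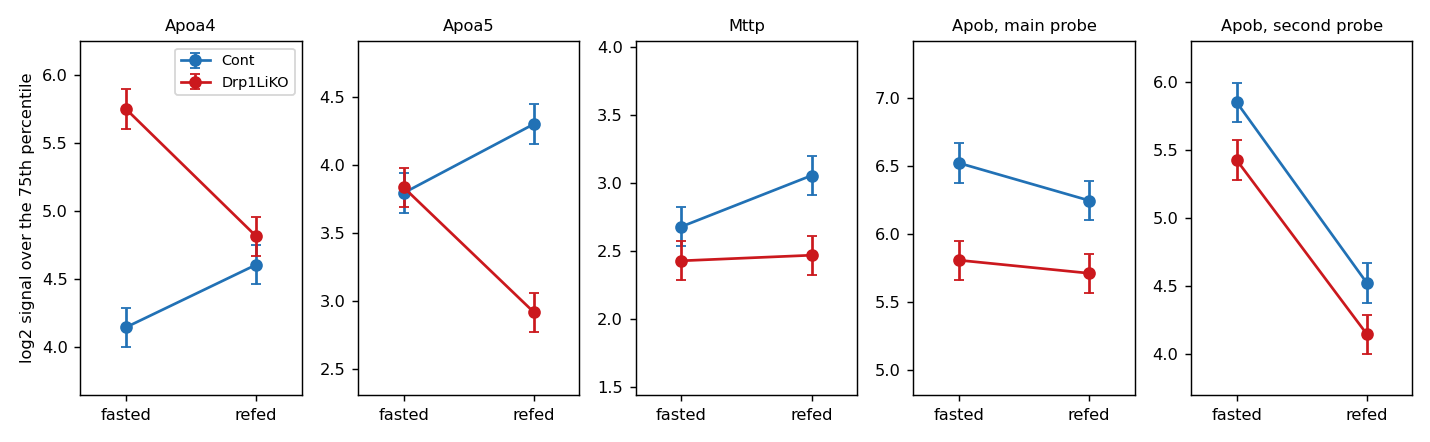
Log2 signal relative to the 75th percentile of the array, in fasted and refed livers of each genotype, for Apoa4, Apoa5, Mttp and both Apob probes; points are single arrays, bars are the measurement SE of 1 array from the scanner's error model, and every panel spans the same height. The Apoa4 lines start 1.61 apart and end 0.21 apart, the Apoa5 lines start together and end 1.38 apart, and the second Apob probe lies lower in refed livers of both genotypes by 1.33 and 1.28.

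Apob, the structural protein of VLDL, gave different answers on its 2 probes. The main probe read 42245 in fasted Cont, 40336 in fasted Drp1LiKO, 27040 in refed Cont and 27486 in refed Drp1LiKO livers. The second probe, farther along the gene, read 26668, 31121, 8218 and 9324 in the same order. Both probes were higher in the 2 fasted than in the 2 refed livers, and on neither did the genotypes of a feeding state differ as scanned by more than 1.17-fold. Scaled, the genotype difference of the main probe was -0.71 in fasted and -0.53 in refed livers (-0.40 and -0.37 in the authors' matrix). On the second probe it was -0.43 and -0.38 (-0.12 and -0.22 in the authors' matrix).

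The size of the refeeding difference depended on the probe. On the second probe, refed livers were 2.51-fold lower in Cont (log2 difference -1.33) and 2.43-fold lower in Drp1LiKO (-1.28), and in the authors' matrix the values were -1.54 and -1.64. On the main probe they were -0.28 and -0.10 scaled and -0.58 and -0.56 in the authors' matrix. The signal of the second probe over that of the main probe was 0.631 in fasted Cont, 0.772 in fasted Drp1LiKO, 0.304 in refed Cont and 0.339 in refed Drp1LiKO livers, a ratio within an array that needs no scaling. It was lower in both refed livers. The ratio shows only that the probes changed unequally, and why was not tested. By the main probe Apob counted as not 2-fold different in either refeeding comparison.

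Mttp, the dimmest of the 10 genes, read 2946 in fasted Cont, 3881 in fasted Drp1LiKO, 2964 in refed Cont and 2907 in refed Drp1LiKO livers. The fasted Drp1LiKO liver was the highest as scanned, and the other 3 arrays were nearly equal. Scaled, the genotype difference was -0.25 in fasted and -0.59 in refed livers (-0.11 and -0.48 in the authors' matrix), and refeeding went with 0.38 in Cont and 0.04 in Drp1LiKO livers. None of these reached 2-fold.

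Counted together, none of the 10 genes was 2-fold higher or lower after refeeding in Cont livers (2.57% of all genes higher and 4.17% lower) or in Drp1LiKO livers (3.46% higher and 4.44% lower). In the authors' matrix 2 of the 10 were 2-fold lower after refeeding in Drp1LiKO livers, Apoa4 and Apoa5. The share of all genes past 2-fold was not counted in that matrix, so this count has nothing to be set against. At 1.5-fold in either direction, 6 of the 10 differed between genotypes in fasted livers (24.7% of all genes) and 7 in refed livers (26.9%). With refeeding, 2 differed in Drp1LiKO livers (27.8%). But Apoa2, Apoc1, Apoc3 and Apoe, the size of whose differences rests on the scaling, are 4 of the 6 and 4 of the 7. The median scaled genotype difference of the 10 was -0.51 in fasted and -0.59 in refed livers, against -0.09 and -0.05 over all genes, and in the authors' matrix it was 0.00 and -0.21. Set against the 500 genes nearest in mean signal, it was -0.17 in fasted and -0.44 in refed livers, with 3 and 1 of the 10 genes above their neighbours. The median refeeding difference was 0.36 in Cont and 0.07 in Drp1LiKO livers, against 0.10 and 0.09 over all genes, and 0.00 and -0.29 against neighbours of like brightness. The 4 comparisons share arrays in pairs and are not independent.

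**Figure D4:**
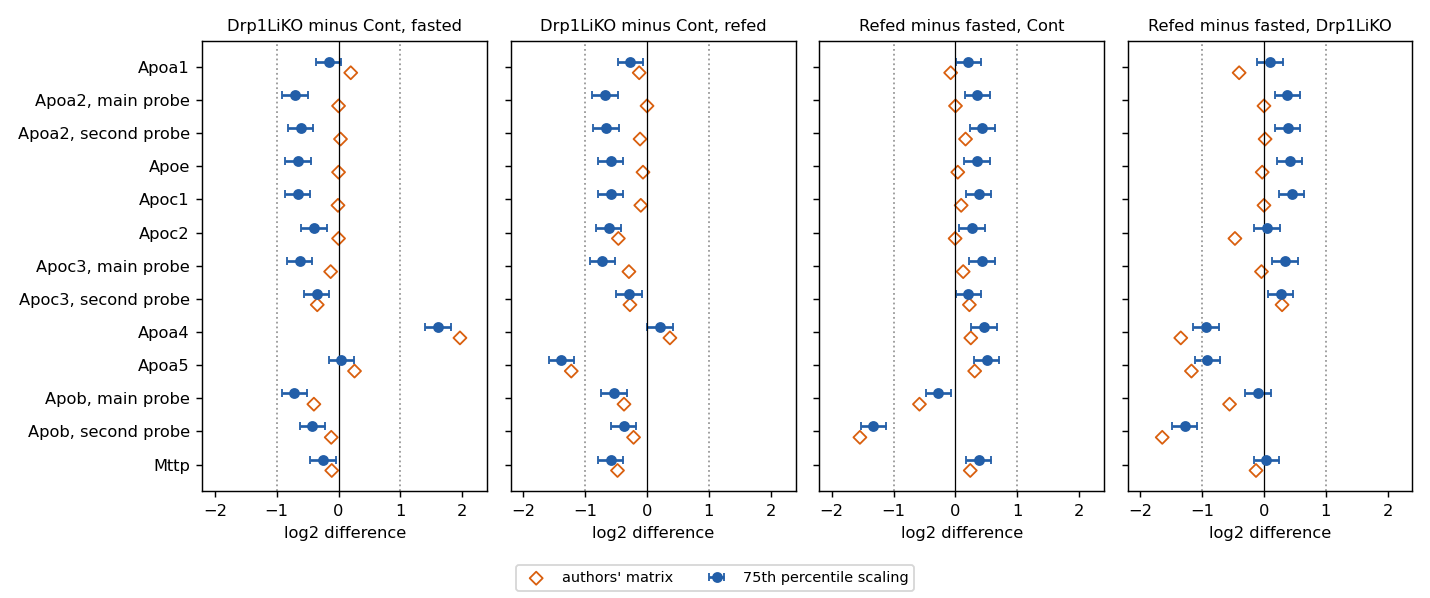
Log2 differences of the 13 probes in the 4 comparisons after scaling to the 75th percentile (filled, bars are the measurement SE from the scanner's error model) and in the authors' quantile-normalized matrix (open); dotted lines mark 2-fold. Apoe, Apoc1 and the main Apoa2 probe move to about 0 in the authors' matrix. The main Apoc3 probe moves to -0.13 in fasted and -0.29 in refed livers for genotype. Apoa4 at 1.61 and 1.96 in fasted livers and Apoa5 at -1.38 and -1.22 in refed livers lie beyond 2-fold on both.

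The test used was an additive limma model of genotype and feeding state over all 4 arrays, with 1 residual degree of freedom and any interaction counted as error. It called none of the 10 genes for genotype and none for refeeding at an adjusted p under 0.05, and none of all 16744 genes for either (0% and 0%; 4746 genes had an unadjusted p under 0.05 for genotype and 4414 for refeeding). Of the 10 genes, 6 had an unadjusted p under 0.05 for genotype (Apoa2, Apob, Apoc1, Apoc2, Apoc3 and Apoe) and 1 for refeeding (Apoc1). In the authors' matrix only Apob did, for both genotype and refeeding. The limma effect of genotype was 0.91 with an SE of 0.40 for Apoa4 (adjusted p 0.241) and -0.67 with an SE of 0.41 for Apoa5 (adjusted p 0.348), whereas the SE was 0.14 for Apob and Apoe. Restricted to genes that every array measured well above background, limma called 8.4% of genes for genotype and 0.104% for refeeding, and again none of the 10.

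Genes around VLDL assembly, secretion and clearance were read from lists of known members. Among 26 partners of VLDL assembly and secretion, none was 2-fold different between fasted Drp1LiKO and Cont livers. In refed livers Ces1d, a triglyceride hydrolase of the endoplasmic reticulum, was lower in Drp1LiKO livers (log2 difference -1.10, and -0.91 in the authors' matrix; 27885, 31833, 23224 and 15999 in the order of arrays above), and Pld1, a phospholipase D, was higher (1.01). Lpcat3, which remodels phospholipids for lipoprotein assembly, was lower after refeeding in Drp1LiKO livers (-1.15) and not 2-fold different in Cont livers (-0.31). The median genotype difference of the 26 was -0.20 in fasted and -0.21 in refed livers, and 0.00 and -0.09 in the authors' matrix. None of 3 genes of Apob mRNA editing reached 2-fold in any comparison.

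Of 12 other apolipoproteins and HDL-bound proteins, Saa4, a constitutive serum amyloid of HDL, was the 1 gene past 2-fold. It read 11609 in fasted Cont, 6193 in fasted Drp1LiKO, 10516 in refed Cont and 5791 in refed Drp1LiKO livers, so both Drp1LiKO arrays were lower as scanned, and scaled the difference was -1.55 in fasted and -1.42 in refed livers. Of 9 measured genes of HDL formation and cholesterol export, Abcg8, a sterol exporter, and Lipc, hepatic lipase, were 2-fold lower in refed Drp1LiKO livers (-1.57 and -1.11), and Abcg8 was also lower after refeeding in Drp1LiKO livers (-1.26).

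Among 18 genes of lipoprotein receptors, clearance and lipolysis, the angiopoietin-like inhibitors of lipoprotein lipase differed most with feeding state. Angptl8, known to be induced by feeding, read 6287 in fasted Cont, 7780 in fasted Drp1LiKO, 41547 in refed Cont and 66669 in refed Drp1LiKO livers, a scaled refeeding difference of 3.09 and 3.56. Angptl4, known to be induced by fasting, read 31581, 44652, 14946 and 7245 in the same order, a difference of -0.71 in Cont and -2.17 in Drp1LiKO livers. In refed livers Angptl4 was 2-fold lower in Drp1LiKO than in Cont (-1.60), and Lpl, lipoprotein lipase, was higher (1.45). Apobr, a receptor for Apob-containing particles named after its value was seen, was higher in the same comparison (1.04).

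Of 26 transcriptional regulators of apolipoprotein genes, Ppara, the receptor that drives fatty acid oxidation, was 2-fold lower in Drp1LiKO livers in both feeding states (-1.06 and -1.39; -0.82 and -1.18 in the authors' matrix). Srebf1, the lipogenic regulator, was lower in fasted Drp1LiKO livers (-1.65) and higher after refeeding in both genotypes (1.29 and 2.55). Srebf2, the regulator of cholesterol synthesis, was higher in fasted Drp1LiKO livers (1.32); in refed Cont livers its probe was not well above background, and refed Drp1LiKO livers were at least 5.66-fold higher, taken against the dimmest signal that was well above background there. The second Srebf2 probe gave only 0.41 in fasted and 0.38 in refed livers, and after refeeding in Drp1LiKO livers it was at -0.40 where the first was at 1.30, so that Srebf2 has no settled size or refeeding direction. Nr0b2, the small heterodimer partner, was lower in refed Drp1LiKO livers (-1.36) and lower after refeeding in Drp1LiKO livers (-1.79). The clock gene Nr1d1 was lower after refeeding in both genotypes (-1.48 and -2.15). The coactivator Ppargc1a was at -1.02 after refeeding in Cont livers (-0.98 in the authors' matrix), and its second probe at -0.53. Of 24 secreted liver proteins outside lipoproteins, taken for comparison, Itih4 was 2-fold lower in fasted (-1.31, but -0.83 in the authors' matrix) and Serpina6 in refed (-1.69) Drp1LiKO livers, and the median genotype difference was -0.58 and -0.42, close in size to that of the 10 genes.

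**Figure D5:**
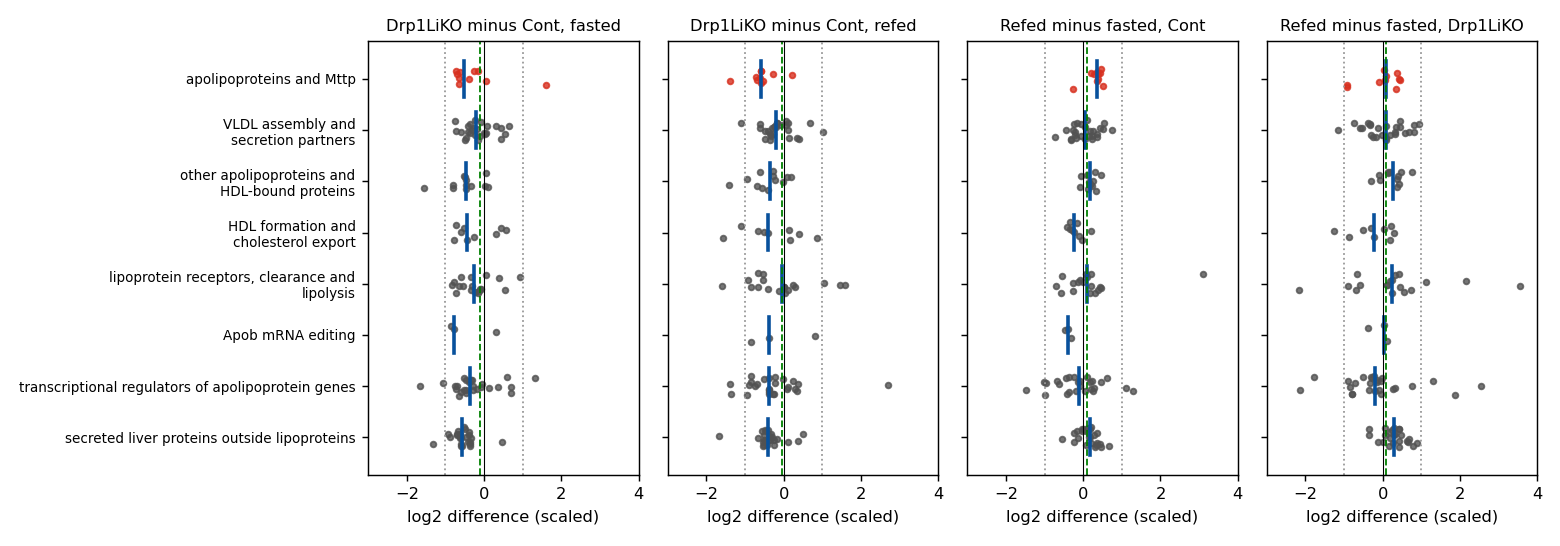
Scaled log2 differences of single genes (points, spread vertically for sight only) in each list for the 4 comparisons; blue bars are list medians, dashed green lines the median of all 16744 genes and dotted lines 2-fold. The apolipoproteins and Mttp sit mostly left of the median of all genes in both genotype comparisons, as the other secreted liver proteins do (medians of -0.58 and -0.42), with Apoa4 and Apoa5 as the points beyond 2-fold.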

How the data were processed

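RNA of 4 livers was measured on one-color Agilent 4x44K arrays, 1 per condition. Whether the arrays shared a slide or a scan was not examined. The intensity values are the processed signals deposited by the authors, background-subtracted within each array per the file headers (Feature Extraction 10.7.1.1; the submitters' processing notes name 9.5.1.1). The matrix of normalized signals deposited by the authors holds the same 39429 probes. Put on the log2 scale, it matched a quantile normalization of these signals (median absolute log2 difference 0.00036). Its columns are samples only. The paper's methods name another array and RNA kit than the labels; the files carry the design in the labels.

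Outlier spots were left out, which removed 37 probes, repeated spots were averaged on the log2 scale, and each array was set relative to its 75th percentile. Probe symbols were updated by RefSeq accession (26727 of 28358 matched to GRCm38.p6). For a gene with several probes, the probe detected well above background on most arrays was used, the brighter one in a tie. The number of arrays limits the precision. A difference of at least 2-fold with the brighter side well above background was counted without a p-value. The test was limma 3.58.1 (R 4.3.3; Python 3.11.15), Benjamini-Hochberg threshold 0.05, which was tested on simulated data for the genotype effect over 16744 genes, where 93 of 100 changes of 8-fold and 0 of 100 changes of 2-fold were found. As alternatives, arrays were scaled to their median or quantile-normalized, background was corrected by normexp (offset 50), and use was made of the authors' matrix, the median over probes, 1.5-fold and differences relative to the 500 genes nearest in mean signal. For limma they were other filters on dim genes, an intensity trend and a model with 1 factor. Signals as scanned were added after seeing the data.

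The genes and lists were chosen with earlier results of these data known. Named list genes are at most the 3 largest differences past 2-fold per list and comparison; nearest profiles were taken for genes spanning at least 1 on the log2 scale, and are not given for Apoa2, Apoc1, Apoc3 and Apoe, whose span is that of the scaling. Results of some list genes past 2-fold are not reported here. No protein sequence was used here.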

Additional observations from a re-analysis of the deposited data

Results flagged for a closer look

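Among the 10 genes, Apoa4 and Apoa5 stood out because refeeding went with differences of opposite sign in the 2 genotypes. For Apoa4 the scaled difference was 0.46 in Cont and -0.94 in Drp1LiKO livers, and the second minus the first was -1.40. For Apoa5 it was 0.51 and -0.92, with -1.43 between them, and the Apoa5 genotype difference likewise was 0.04 in fasted and -1.38 in refed livers, again -1.43 apart. None of these differences between comparisons was tested, since each condition has 1 array. The value of 0.04 is within its measurement SE of 0.20.

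On the scaled values, genes of the surrounding lists also had opposite signs, again untested. Nr0b2 was at 0.69 in fasted and -1.36 in refed livers for genotype, and at 0.27 in Cont and -1.79 in Drp1LiKO livers for refeeding, -2.06 apart in both. For genotype, refed minus fasted, the differences were -0.84 for Lpcat3 and 0.46 for Angptl8. For refeeding, Drp1LiKO minus Cont, they were 0.93 for Itih4, -0.80 for Serpina6, -0.64 for Ces1d, 0.58 for Pld1, 0.51 for Apobr, 2.61 for Tff3 (-0.83 in Cont and 1.78 in Drp1LiKO livers) and -0.031 for Fabp2, whose values were both near 0. The smaller of the opposing values was within the measurement SE for Ces1d (0.10 in Cont), Itih4 (-0.04 in Cont), Serpina6 (-0.13 in Drp1LiKO) and Angptl8 (0.12 in refed livers). It was also within the measurement SE for the dimmer Apobr (-0.25 in Cont, SE 0.28). In the authors' matrix Ces1d (-0.16 and -0.91) and Fabp2 (-0.29 and -0.51) had one sign in both genotypes.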

How the results depend on the processing

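Apoa4 was at least 2-fold higher in fasted Drp1LiKO livers, and Apoa5 at least 2-fold lower in refed ones, under every scaling tried except that Apoa5 was at -0.83 as scanned, where the count of genes past 2-fold in refed livers was 0. At 1.5-fold the count for genotype was 6 in fasted (24.7% of all genes) and 7 in refed livers (26.9%). Both counts hold the 4 brightest genes, the size of whose differences rests on the scaling. For refeeding in Drp1LiKO livers the count was 2 (27.8%). At 2-fold that last count was 0 after scaling to the 75th percentile. It was 2 under quantile normalization, in the authors' matrix, relative to the 500 nearest genes and as scanned. The share of all genes past 2-fold was not counted under these alternatives. The median of the 10 genes for genotype in fasted livers was 0.00 under quantile normalization and in the authors' matrix, -0.17 relative to the nearest genes and 0.13 as scanned. In refed livers it was -0.21 under quantile normalization and in the authors' matrix, and -0.028 as scanned. For refeeding in Cont livers it was 0.063 under quantile normalization, 0.064 in the authors' matrix, -0.0045 relative to the nearest genes and -0.0050 as scanned. In Drp1LiKO livers it was -0.26 under quantile normalization and in the authors' matrix, -0.29 relative to the nearest genes and -0.38 as scanned. Limma called none of the 10 genes under any alternative, while over all genes it called 0 for genotype with the scaling used and 474 with an intensity trend, 319 after scaling to the median, 495 after normexp, 1 with refeeding left out and 1214 with the stricter filter, which tests fewer genes. For refeeding it called 15 genes with that filter and 0 otherwise. No paired analysis was possible because each group has 1 array. The cause of the shift between scalings was not tested, and the sources do not say from how many mice an array's RNA came.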
